A study of Mus musculus with 12 samples.

Results

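Aldehyde dehydrogenases are the enzymes that oxidise aldehydes to carboxylic acids with NAD or NADP. The genes described here were taken by symbol from the platform annotation: Aldh1b1, Aldh1a1, Aldh1a7, Aldh1l1, Aldh2, Aldh3a2, Aldh4a1, Aldh7a1, Aldh8a1 and Aldh9a1. Each of the 10 genes was measured by 1 probe set, so they are 10 of the 19938 genes with a single symbol and 10 of the 35556 rows in the table. The list was drawn up, and its members chosen by symbol, with the measured log2 differences between K289R and WT on these same arrays already known. The differences of the members are therefore given as a description, with 95% intervals and without p-values.

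The livers came from 12 male C57BL/6J mice, 6 wild-type (WT) and 6 carrying the K289R knock-in of LRH-1, the nuclear receptor encoded by Nr5a2. The change takes away a lysine to which SUMO can be coupled. The knock-in is present in the germline and so in every cell type, not in hepatocytes alone. All 12 mice, controls included, had been fasted for 24 h and refed for 6 h, so no fasted or freely fed animal serves as a reference. The age of the mice is not given in the labels. The arrays cannot show the K289R base change itself, so the genotypes are those of the labels. Values are linear probe-set intensities, 1 array per mouse, and a fold change is computed from means of log2 values.

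In liver, aldehydes come from ethanol, retinol, membrane and dietary lipids and the breakdown of amino acids, and most members of the family serve 1 of these routes. Aldh1b1 and Aldh2 are closely related mitochondrial enzymes that oxidise acetaldehyde. Aldh1a1 oxidises retinaldehyde in the cytosol, Aldh3a2 oxidises long-chain fatty aldehydes at the endoplasmic reticulum, and Aldh1l1 consumes 10-formyltetrahydrofolate, a carrier of one-carbon units. Aldh4a1, Aldh7a1, Aldh8a1 and Aldh9a1 act in proline, lysine and tryptophan breakdown and in carnitine synthesis.

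The largest K289R to WT differences among the members were those of Aldh1b1 and Aldh3a2, so the 250 bases before their annotated start sites are shown (RefSeq, GRCm38.p6, chr4:45798772-45799021 on the plus strand and chr11:61267187-61267436 on the minus strand, each written 5′ to 3′ along the gene). Capitals mark matches to the motifs searched.
Aldh1b1: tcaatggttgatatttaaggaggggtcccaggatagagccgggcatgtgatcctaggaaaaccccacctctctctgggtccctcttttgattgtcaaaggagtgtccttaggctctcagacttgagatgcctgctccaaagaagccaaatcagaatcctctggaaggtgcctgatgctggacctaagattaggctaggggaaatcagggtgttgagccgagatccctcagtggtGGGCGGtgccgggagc
Aldh3a2: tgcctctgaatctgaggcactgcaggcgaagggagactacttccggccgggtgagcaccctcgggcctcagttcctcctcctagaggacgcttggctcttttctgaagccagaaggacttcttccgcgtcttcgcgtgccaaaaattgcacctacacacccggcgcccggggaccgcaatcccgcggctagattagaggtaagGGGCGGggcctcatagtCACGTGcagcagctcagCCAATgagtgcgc
RefSeq promoters of 8 of the 10 members were searched, with 9 start sites because Aldh1a1 has 2. Aldh2 and Aldh7a1 were not among them. A filter left out member start sites on 1 chromosome and was not applied to the set of all annotated starts. A member that was not searched may therefore still have an annotated promoter. The search covered both strands for CAAGGTCA and CAAGGCCA (the LRH-1 site), AGGTCA (the nuclear receptor core, contained in the first of these), CACGTG (an E-box), TATAAA (the TATA box), CCAAT and GGGCGG (the GC box). Aldh1b1 held 1 match, a GC box 16 to 11 bases before the start. Aldh3a2 held a GC box (47 to 42 bases before the start), an E-box (30 to 25) and a CCAAT box (13 to 9). The LRH-1 letters were found at 0 of the 9 member start sites, and at 3.28% of all 32851 annotated starts. The E-box was present at 1 of 9 sites and at 6.02% of all starts, the GC box at 3 of 9 and at 32.7%, and CCAAT at 6 of 9 and at 33.8%. AGGTCA occurred in the Aldh1l1 promoter (14.0% of all starts) and TATAAA in that of Aldh1a7 (12.4%). These matches describe letters in a short window and not bound sites.

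Array medians ran from 26.8 to 29.2, and every member lay above the highest of them on all 12 arrays. The labelled tissue was checked by 10 hepatocyte markers, albumin (Alb) among them, whose mean log2 intensity was 11.74 to 11.89 over the 12 arrays. A few arrays carried other transcripts. Pancreatic acinar markers (13 measured of 16 listed) summed to 7013 on K289R 1 and 11187 on K289R 3, whereas WT arrays had 297 to 352 and the remaining K289R arrays 280 to 364. The 16 acute phase genes, which hepatocytes induce in inflammation, summed to 30903 on WT 1 and 34602 on WT 3, while the remaining WT arrays had 20413 to 24332 and K289R arrays 19543 to 22372. Muscle markers (12) summed to 2695 on WT 1 and 1011 on K289R 3 and to at most 409 elsewhere. By limma over all genes 0 genes of these lists passed, against 0.572% of all genes. An unadjusted p under 0.05 was found for 1 acinar, 2 acute phase and 0 muscle genes, against 12% of all genes. All 13 acinar genes had positive K289R minus WT log2 differences (median 1.48). Those of all 16 acute phase genes (median -0.32) and all 12 muscle genes (median -0.28) were negative. In whole liver, fewer cells of a type and less RNA per cell cannot be told apart.

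**Figure D1:**
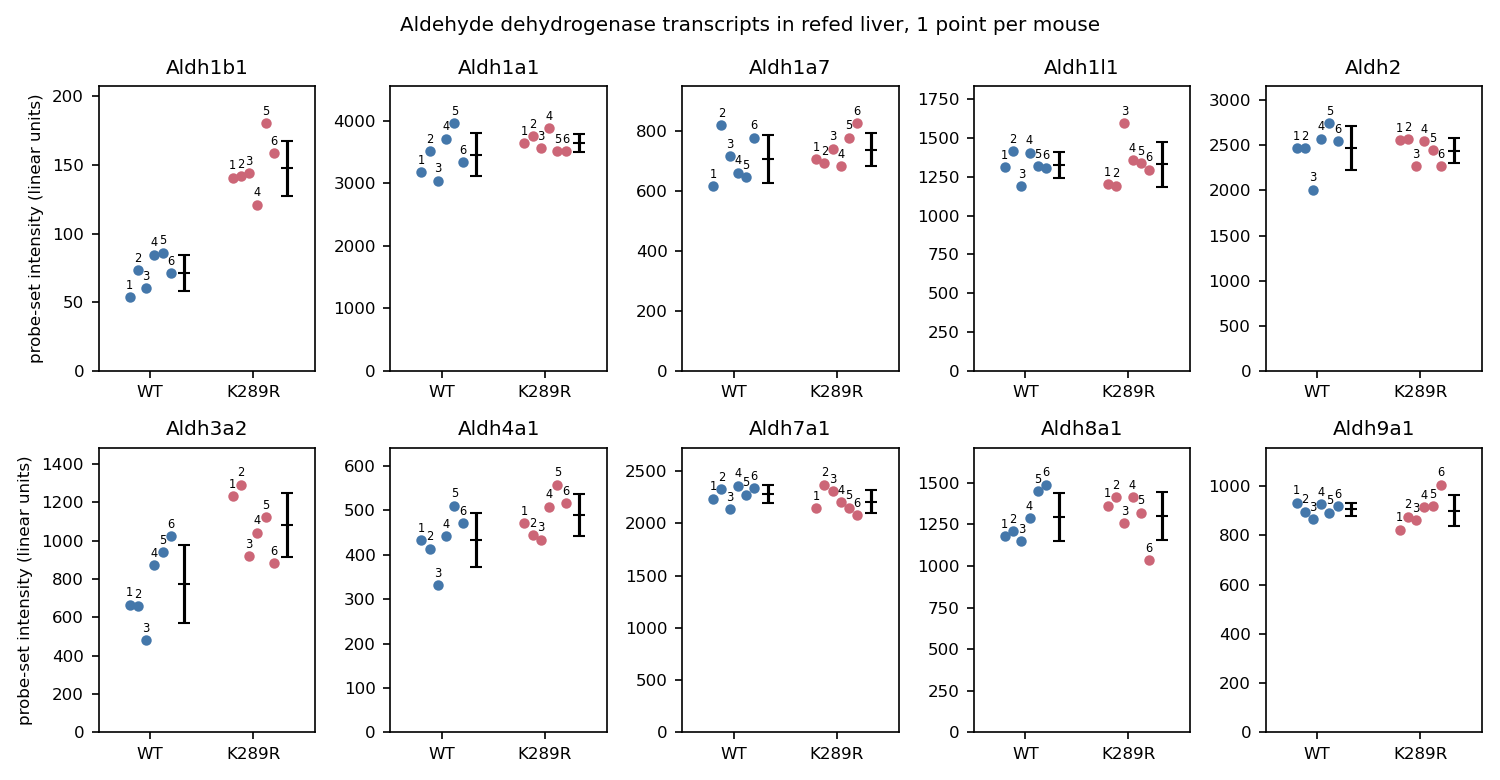
Linear probe-set intensity of each of the 10 genes (vertical axis from 0) on the 6 WT and 6 K289R arrays; points are mice with their replicate number, and bars are the mean ± SD. The Aldh1b1 points do not overlap between genotypes (at most 86.0 in WT, at least 121 in K289R). Those of Aldh3a2 and of the other 8 genes overlap.

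Aldh1b1 was higher in K289R livers, at 2.08 times the WT level (95% interval 1.75 to 2.47). Its intensity in WT ran from 53.5 through a median of 72.0 to 86.0, and in K289R from 121 through 143 to 180. Every K289R array lay above every WT array. The WT mean was 71.4 ± 12.9 and the K289R mean 148 ± 20.0 (SD, n = 6 each), a log2 difference of 1.06 ± 0.12 (SE). It was the 1 member of 10 that passed the limma fit over all genes at an adjusted p under 0.05, a threshold that 0.572% of the 19938 genes passed, with 0.481% higher and 0.0903% lower. Because this contrast was known when the list was made, nothing is read from that count. It was likewise the only member whose arrays did not overlap between genotypes, which held for 1.24% of all genes. Among the 96 genes called higher, Aldh1b1 ranked 15th by log2 difference, and 17 were called at 2-fold or more.

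Aldh1b1 is expressed in the pancreas as well as in liver, and the K289R arrays with acinar transcripts did not stand out for it. K289R 1 measured 141 and K289R 3 measured 144, inside the range of the other K289R arrays (121 to 180). Without K289R 1 and 3 the log2 difference was 1.08 (95% interval 0.78 to 1.38). The acute phase arrays WT 1 (53.5) and WT 3 (60.3) were the lowest of the WT group, and without them the difference was 0.90 (95% interval 0.68 to 1.12). Without all 4 arrays it was 0.92. The part of acinar or acute phase transcripts in the difference was not tested beyond these fits.

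Aldh2, which clears most acetaldehyde in liver mitochondria and is the nearest relative of Aldh1b1, did not show such a difference. WT intensities ran from 2010 through 2509 to 2746 and K289R intensities from 2266 through 2496 to 2567. The group ranges overlapped almost entirely, with a log2 difference of -0.01 (95% interval -0.17 to 0.15).

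Aldh3a2, the fatty aldehyde dehydrogenase, had the next largest difference. Its WT arrays ran from 482 through 768 to 1023, whereas the K289R arrays ran from 882 through 1081 to 1291. All 6 K289R arrays lay above the WT median and 4 lay above the highest WT array, so the groups overlapped through WT 5 (938) and WT 6 (1023). The WT mean was 773 ± 204 and the K289R mean 1081 ± 165 (SD, n = 6 each), a log2 difference of 0.52 with an interval of 0.18 to 0.85, and the gene did not pass the fit over all genes. The lowest WT arrays were WT 3 (482), WT 2 (658) and WT 1 (665), with acute phase sums of 34602, 24332 and 30903. The remaining WT arrays measured 872 to 1023, with acute phase sums of 20413 to 22232. Without WT 1 and 3 the difference was 0.31 (95% interval 0.03 to 0.60). The part of the acute phase response in the difference was not tested beyond that.

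The retinaldehyde dehydrogenase Aldh1a1 differed little. It measured 3040 to 3960 in WT (median 3427) and 3508 to 3876 in K289R (median 3597), a log2 difference of 0.08 with an interval of -0.07 to 0.23. Aldh1a7, its rodent paralog, measured 616 to 820 in WT (median 689) and 683 to 826 in K289R (median 724), a difference of 0.07 (interval -0.10 to 0.24). The WT range took in all 6 K289R arrays for Aldh1a1 and 5 of 6 for Aldh1a7. The genes are closely similar neighbours on chromosome 19, so signal may be shared between their probe sets and each value is uncertain to that extent. Aldh1l1, the cytosolic 10-formyltetrahydrofolate dehydrogenase, had means of 1325 ± 82.0 and 1331 ± 146 (WT and K289R, SD, n = 6 each). Its highest K289R value, 1596, was on K289R 3, whereas K289R 1, the other array with acinar transcripts, measured 1204. The interval of its log2 difference was -0.16 to 0.16.

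Of the enzymes of amino acid routes, Aldh4a1, which converts glutamate semialdehyde to glutamate in proline breakdown, had the largest difference. It measured 331 through 437 to 510 in WT and 434 through 490 to 558 in K289R. The ranges overlapped, with 2 K289R arrays above the highest WT array, and the log2 difference was 0.18 (interval -0.02 to 0.38). Without WT 3, its lowest array, the difference was 0.11. Aldh8a1, which oxidises aminomuconate semialdehyde from tryptophan, had means of 1295 ± 144 and 1301 ± 143 (WT and K289R, SD, n = 6 each). Its lowest array of all was K289R 6 at 1035. Aldh7a1, the antiquitin of lysine breakdown, measured 2278 ± 84.1 and 2207 ± 111, and Aldh9a1, which makes the carnitine precursor butyrobetaine, 905 ± 25.6 and 900 ± 62.9 (WT and K289R, SD, n = 6 each). Their intervals of the log2 difference were -0.17 to 0.08 and -0.14 to 0.12, the narrowest of the family members. For Aldh1l1, Aldh2, Aldh8a1 and Aldh9a1 the difference had no settled sign: leaving out 1 array moved it between -0.05 and 0.03, -0.07 and 0.02, -0.03 and 0.07, and -0.04 and 0.01. Equal array medians also turned the sign for Aldh2 and Aldh9a1 (0.03 each).

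Across the 10 members 7 log2 differences were positive, with a median of 0.04. Over all 19938 genes 46.0% were positive and the median was -0.01. For 8 of the 10 members the difference lay within 0.2 log2 units of 0. The median of the members was between 0.01 and 0.06 when any 1 array was left out, and -0.01 without WT 1 and 3. Without WT 1 and 3 the differences of those 8 members ran from -0.08 (Aldh2 and Aldh7a1) to 0.09 (Aldh4a1), each lower than with all arrays. That of Aldh1a1 was then 0.01, and those of Aldh1l1 and Aldh8a1 were -0.04 and -0.07. Without K289R 1 and 3 the 8 differences ran from -0.05 (Aldh7a1) to 0.23 (Aldh4a1).

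**Figure D2:**
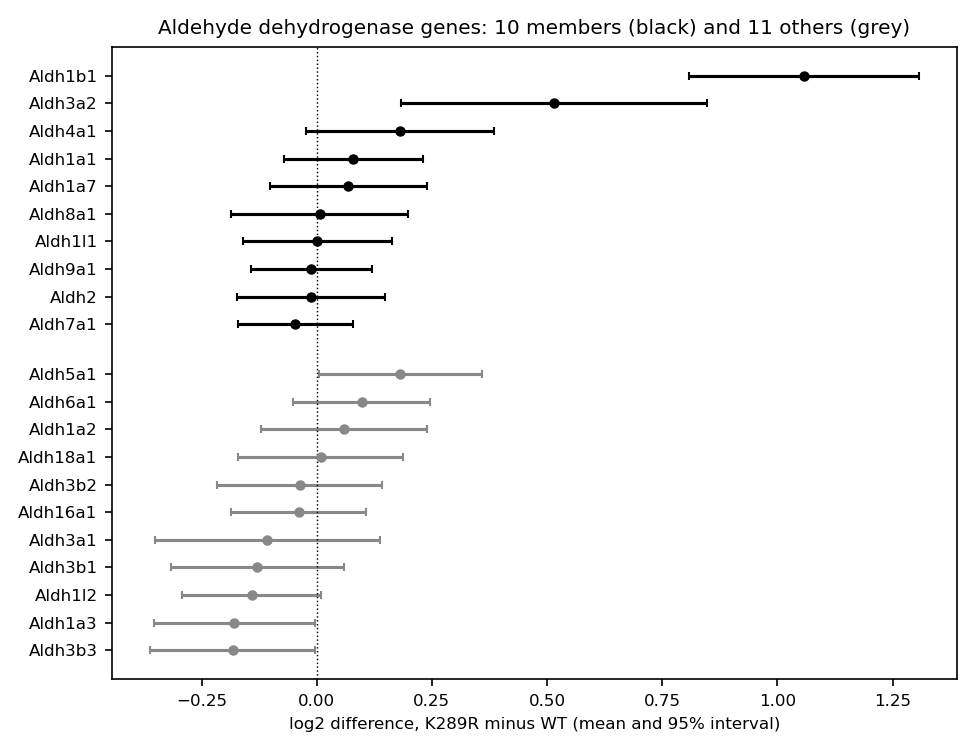
Log2 difference of K289R minus WT (horizontal axis, points) with the 95% interval of the limma fit (bars, 6 arrays per genotype) for the 10 members in black and 11 other aldehyde dehydrogenase genes in grey. Aldh1b1 stands at 1.06 and Aldh3a2 at 0.52, while all others lie between -0.18 and 0.18.

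Of 11 further aldehyde dehydrogenase genes, 0 passed the limma test over all genes, and 3 had an unadjusted p under 0.05, as did 2399 (12%) of the 19938 genes tested. Without K289R 1 and 3 that count was 1, without WT 1 and 3 it was 1, and without all 4 arrays it was 2. Their log2 differences ran from -0.18 to 0.18, with a median of -0.04, and 4 were positive. Aldh5a1, the succinate semialdehyde dehydrogenase of GABA breakdown, had WT and K289R means of 107 ± 9.47 and 121 ± 12.8 (SD, n = 6 each, limma adjusted p = 0.405), with 5 of 6 K289R arrays above the highest WT array. Aldh6a1, the mitochondrial enzyme of valine and pyrimidine breakdown, measured 1034 ± 89.8 and 1104 ± 59.1 (limma adjusted p = 0.594). Aldh3b3, of the lipid-linked 3B group, measured 154 ± 18.5 and 136 ± 10.5 (limma adjusted p = 0.407). Its other probe sets were dim and differed in sign, at 0.20 and -0.13 on the log2 scale, and signal of the similar gene Aldh3b2 may be shared with it. Aldh3b1 and Aldh3b2 had log2 differences of -0.13 and -0.04 (0.00 for Aldh3b2 with equal array medians), and Aldh16a1, a family member with no catalytic cysteine, -0.04.

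The retinaldehyde dehydrogenases Aldh1a2 and Aldh1a3, the mitochondrial formyltetrahydrofolate dehydrogenase Aldh1l2 and the stomach and corneal enzyme Aldh3a1 had mean intensities below every array's median, where signal was not told from background. Their log2 differences were 0.06, -0.18, -0.14 and -0.11. Aldh18a1, which works in the opposite direction to Aldh4a1 by making proline precursors, averaged 33.6 ± 3.34 and 33.8 ± 3.70 (WT and K289R, SD, n = 6 each), a log2 difference of 0.01.

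Mice of 1 genotype were compared by their deviations from the genotype mean, which do not enter the K289R minus WT difference. Whether the spread between mice bore on the choice of the members is not known. The coefficient of variation in WT ran from 2.82% (Aldh9a1) to 26.5% (Aldh3a2) and in K289R from 4.05% (Aldh1a1) to 15.2% (Aldh3a2). Aldh3a2 was the most variable member in both genotypes. WT 3, an array with acute phase transcripts, was the lowest WT array for 8 of the 10 members, whereas it was lowest for 17.9% of the 9969 genes above the median level. WT 1, the other such array, was lowest for the remaining 2 members, Aldh1b1 and Aldh1a7, and for 18.4% of genes. A low WT 3 was not particular to the members. By mean log2 intensity it was also the lowest WT array for the hepatocyte markers (11.74). The same held for the alcohol and aldehyde (8.51), retinoid (7.28), folate (7.26), amino acid route (8.51) and electrophile response (7.89) genes described below. For the other aldehyde dehydrogenases the lowest was WT 6 (5.56). In K289R the lowest array varied more: K289R 6 for 4 members (25.5% of genes), K289R 3 and K289R 4 for 2 each (16.6% and 19.9%), and K289R 1 and K289R 2 for 1 each (13.0% and 11.6%).

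**Figure D3:**
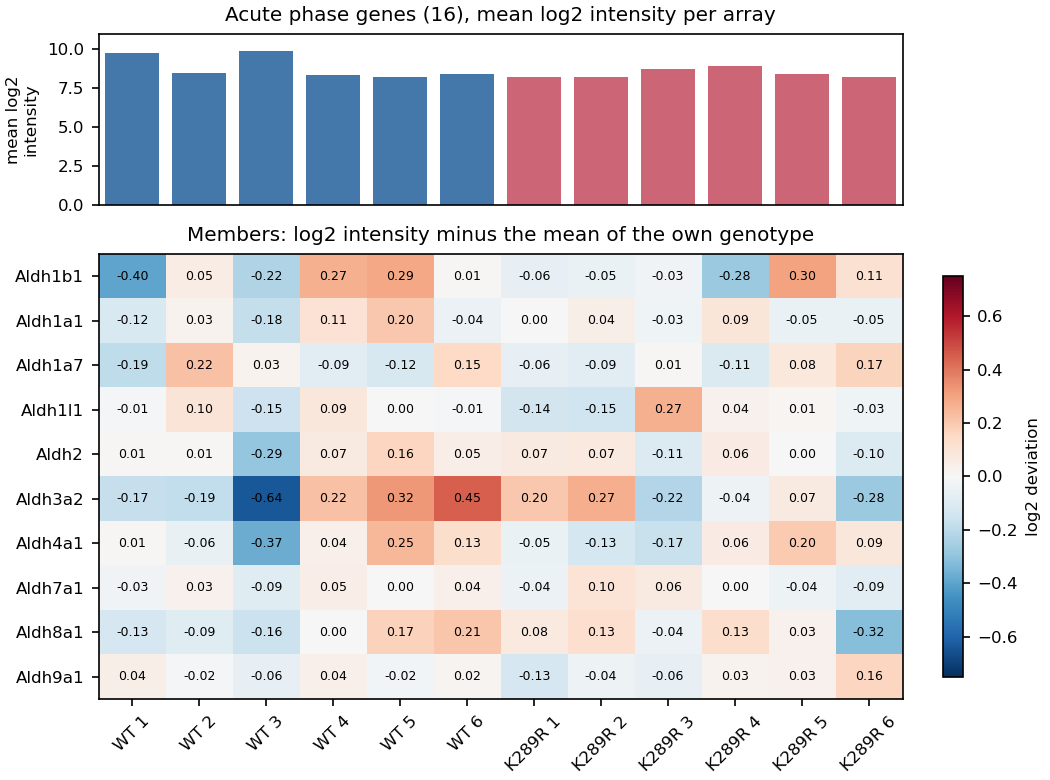
Upper bars: mean log2 intensity of 16 acute phase genes on each array (WT blue, K289R red). Lower grid: log2 intensity of each member minus the mean of its own genotype, with the value in each cell; WT 3 is the lowest WT array in 8 of 10 rows and reaches -0.64 for Aldh3a2.

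Some pairs of members moved together from mouse to mouse. Pairs of other genes were not tested, so the counts below have no background share. Co-movement is not shown to be particular to the members. With the genotype means removed, 4 of 45 pairs of members passed a two-sided permutation test within genotype (Benjamini-Hochberg over the 45), and 32 of the 45 correlations were positive. Aldh2 and Aldh3a2 had r = 0.88 over 12 arrays (rho = 0.83, permutation p = 0.00062, adjusted p = 0.0112). Aldh3a2 and Aldh8a1 had r = 0.82 (rho = 0.87, permutation p = 0.00024, adjusted p = 0.0108). The other pairs were Aldh2 with Aldh8a1 (r = 0.71, rho = 0.72, permutation adjusted p = 0.0112) and Aldh1a1 with Aldh2 (r = 0.79, rho = 0.77, permutation adjusted p = 0.0447). By Spearman's rho the first 2 of these pairs passed. The r values were of like size within WT and within K289R: 0.87 and 0.89 for Aldh2 with Aldh3a2, and 0.91 and 0.77 for Aldh3a2 with Aldh8a1 (n = 6 each, given as a description). This did not hold for Aldh2 with Aldh4a1, at 0.97 within WT and 0.01 within K289R, a pair that did not pass (r = 0.71, permutation adjusted p = 0.302).

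The calls leaned on WT 3, but not every r did. With 1 array left out, r was lowest without WT 3 for Aldh2 with Aldh3a2 and for Aldh1a1 with Aldh2 (0.68). It was lowest without WT 6 for Aldh3a2 with Aldh8a1 (0.77) and without WT 5 for Aldh2 with Aldh8a1 (0.66). Without WT 3, 0 of 45 pairs passed the permutation test, although r for Aldh2 with Aldh3a2 was 0.77; leaving out any other array left 2 to 5 pairs. The r values were also taken without the 2 arrays farthest from the median of the first-named member. They were 0.75 for Aldh2 with Aldh3a2, 0.80 for Aldh3a2 with Aldh8a1, 0.85 for Aldh2 with Aldh8a1 and 0.52 for Aldh1a1 with Aldh2. Aldh1b1 had no partner among the members that passed; its highest r was 0.54, with Aldh4a1 (permutation adjusted p = 0.347). The pair Aldh2 and Aldh1b1, the mitochondrial acetaldehyde enzymes, was among those that did not pass.

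**Figure D4:**
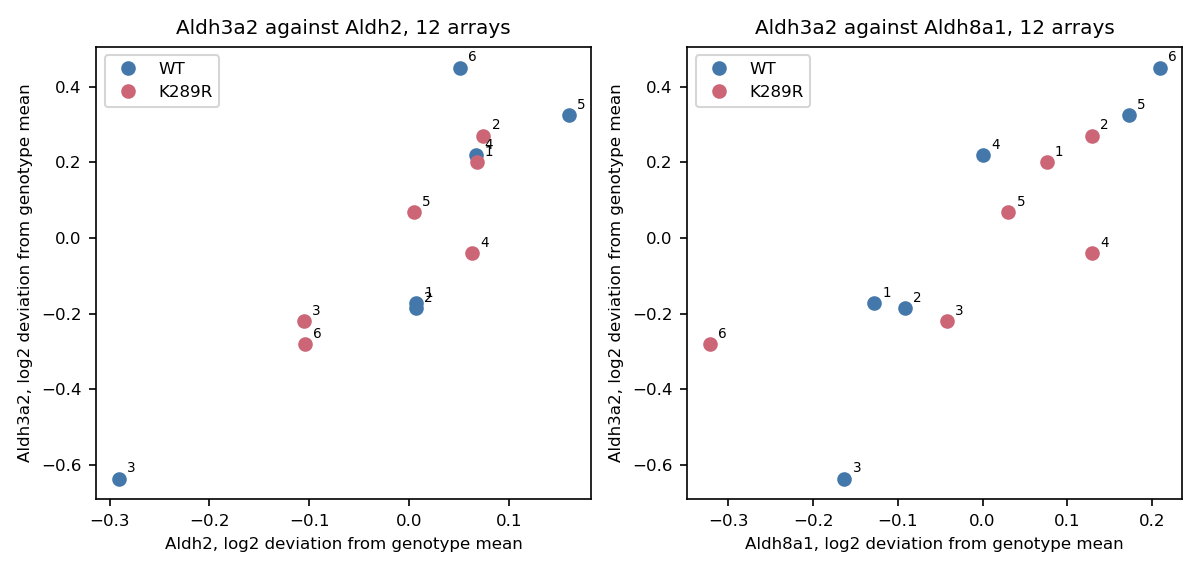
Log2 deviation of Aldh3a2 from its genotype mean (vertical axis) against that of Aldh2 (left) and Aldh8a1 (right) on 12 arrays, WT blue and K289R red, numbered by replicate. Points rise together in both genotypes (r = 0.88 and 0.82), with WT 3 at the lower end of both plots.

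Over 9968 other genes above the median level, those most like Aldh1b1 by within-genotype Pearson r over the 12 arrays were Igf2r (0.95), Rnf123 (0.91), Ccdc159 (0.89) and Ankrd44 (0.89). These are the highest of many correlations and carry no p. Igf2r, the receptor that carries mannose 6-phosphate tagged enzymes and binds IGF2, averaged 134 ± 9.84 on WT and 161 ± 8.48 on K289R arrays (SD, n = 6 each) and did not pass between genotypes (limma adjusted p = 0.0906). The log2 differences of the 4 genes between genotypes were 0.27, -0.10, 0.05 and 0.28, against 1.06 for Aldh1b1, and 0 of the 4 passed.

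The enzymes around the family gave few calls. Of 19 measured genes of alcohol oxidation, other aldehyde removal and acetate use, 1 rose and 18 did not pass, with a median log2 difference of 0.01. The gene that rose was Esd, the S-formylglutathione hydrolase that completes formaldehyde removal, from 384 ± 15.1 to 471 ± 24.4 (SD, n = 6 each, 1.23-fold, limma adjusted p = 0.0295). Its WT arrays ran from 367 to 400 and its K289R arrays from 437 to 497, without overlap. The Esd call was close to the threshold: Esd passed in 5 of the 12 fits with 1 array removed, and the call was lost without K289R 1 and 3 (adjusted p = 0.124), WT 1 and 3 (adjusted p = 0.103) or all 4 arrays (adjusted p = 0.262), while its log2 difference was 0.28 to 0.32 with 1 array removed.

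Of 24 retinoid genes 1 rose, and the median log2 difference was 0.04. Rdh9, a retinol and steroid dehydrogenase of the short-chain family, rose 1.66-fold, from 183 ± 41.6 to 298 ± 28.0 (SD, n = 6 each, limma adjusted p = 0.0119), with WT arrays at 127 to 229 and K289R arrays at 258 to 345. The call was lost without K289R 1 and 3 (adjusted p = 0.0638) and without all 4 arrays (adjusted p = 0.101), with log2 differences of 0.74 and 0.66. WT 3 was its lowest array, and without WT 1 and 3 the difference was 0.65 (adjusted p = 0.0307). Rdh9 lies in a cluster of related genes, so its signal may include that of relatives such as Rdh16 and Rdh7, though their sequences were not compared. Rdh16 had a log2 difference of 0.50 (limma adjusted p = 0.0753) and Rdh7 one of 0.06.

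Of 15 folate genes 0 passed the limma test and 4 (26.7%) had an unadjusted p under 0.05, against 12% of all genes. Their median log2 difference was 0.08. The smallest p values were those of the serine hydroxymethyltransferase Shmt1 (log2 difference 0.35, limma adjusted p = 0.0947) and the glycine decarboxylase Gldc (0.25, limma adjusted p = 0.0947). Without WT 1 and 3 the folate count of 4 became 5 (33.3%, against 10.7% of all genes). It stayed 4 (26.7%) without K289R 1 and 3 (against 8.83%) and without all 4 arrays (against 7.96%). Of 24 genes that act before the amino acid, carnitine and polyamine aldehydes 0 passed and 9 (37.5%) had an unadjusted p under 0.05, with a median of 0.11. Without WT 1 and 3 the count of 9 became 4 (16.7%, against 10.7% of all genes), and without K289R 1 and 3 it was 6 (25.0%, against 8.83%). Without all 4 arrays it was 5 (20.8%, against 7.96%). Pipox, which oxidises pipecolate in the lysine route, had a difference of 0.29 (limma adjusted p = 0.139), and kynureninase (Kynu), of the tryptophan route, one of 0.23 (limma adjusted p = 0.170). Of 11 genes of the electrophile response 0 passed and 3 had an unadjusted p under 0.05, with a median of 0.04. Its transcription factor Nrf2 (Nfe2l2) had a difference of 0.33 (limma adjusted p = 0.111) and the quinone reductase Nqo1, dim at 24.9 in WT, one of 0.38 (limma adjusted p = 0.175). WT 3 was the lowest of all 12 arrays for these 6 genes. Without WT 1 and 3 the log2 differences were 0.24 for Shmt1, 0.22 for Gldc, 0.21 for Pipox, 0.23 for Kynu, 0.26 for Nfe2l2 and 0.34 for Nqo1, and 0 of the 6 passed.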

How the data were processed

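Liver RNA of 12 mice was hybridised to 1 Affymetrix gene array each. The deposited values are linear intensities, summarised per probe set with Affymetrix Expression Console, per the submitters' processing notes. The sources used here do not give its background correction, summarization or normalization. Of the 35556 rows 21789 had 1 symbol, 1621 several and 12146 were not listed in the annotation; 21698 of the single-symbol rows matched RefSeq by gene ID. Rows with 1 symbol gave 19938 genes, each by its probe set with the highest mean. No detection call was used, so dim genes were tested.

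Log2 values were compared between genotypes with limma 3.58.1 (R 4.3.3, lmFit and eBayes, no covariates, all 12 arrays), with two-sided Benjamini-Hochberg adjustment over the 19938 genes and a threshold of 0.05. Adjusted p-values of single genes come from this fit. Correlations used 100000 permutations within genotype. The number of arrays limits the precision. The members, gene lists and tests were chosen with earlier results of these data known. Named genes were all aldehyde dehydrogenases, in each pathway list up to 4 genes that passed or otherwise the 2 with the smallest p, and the 4 genes most like a called member; Rdh16 and Rdh7 were added after their values were seen. Replicate numbers name different mice. Nothing in the sources states array batches. The fit was tested on simulated data. Alternatives were other scalings, gene filters and variance models, a replicate block and arrays left out. Figures used matplotlib 3.10.9.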

Additional observations from a re-analysis of the deposited data

Results flagged for a closer look

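Aldh2 in WT was the only one of 66 gene and genotype combinations tested in which 1 of 6 arrays lay far from the rest. WT 3 measured 2010 and its 5 fellow WT arrays 2469 to 2746. On the log2 scale, the only one tested, the gap took 0.66 of the whole range against a critical value of 0.625. The value lay close to the limit and depends on that scale. By chance about 1 in 20 groups would show such a gap, so 1 flag among 66 combinations is no more than chance would give. WT 3 also had the highest acute phase sum, 34602.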

How the results depend on the processing

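The log2 difference of Aldh1b1, a description as in the report, was 0.98 to 1.12 when 1 array was left out and 0.90 to 1.09 under the other settings. The count of members called was 1 and that of the other aldehyde dehydrogenases 0 in every setting run, and nothing is read from the former. Aldh3a2 was positive and did not pass in any setting (0.39 to 0.61 without 1 array). The count of all genes called, 114, became 75 without K289R 1 and 3 and 65 without all 4 arrays, settings added after the data were examined, and ran from 81 to 159 when 1 array was left out. In the lists, Esd did not pass with the mean of all probe sets, with all rows of the table or without the arrays that stood apart (0 calls in each), and Rdh9 did not pass with all rows, without K289R 1 and 3 or without all 4 arrays (0 calls). With dim genes left out 2 retinoid genes and 1 folate gene passed, and with equal array medians 1 folate gene, Gldc in both. Leaving out 1 array gave 0 to 1 alcohol and aldehyde genes, 1 to 2 retinoid genes and 0 to 1 folate genes. By Spearman's rho 2 pairs of members passed, and 0 to 5 did by r without 1 array, 0 of them without WT 3. Aldh9a1 turned to 0.04 without K289R 1 and 3 and to 0.03 without all 4 arrays. Samples with the same replicate number share only that number: their deviations correlated at -0.23 to 0.23, and 1 of 6 WT arrays correlated best with its own number. The replicate block gave 111 calls over all genes, gave a log2 difference of 1.06 for Aldh1b1 and left 0 alcohol and aldehyde genes called. Aldehyde dehydrogenases near or below the array medians could not be told from background.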
